A study of Mus musculus with 6 samples.

Results

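The genes described are 10 that carry cholesterol into, through or out of the liver: the HDL receptor Scarb1, the sterol exporters Abcg5, Abcg8, Abca1 and Abcg1, the remodelling proteins Lcat and Pltp, the HDL proteins Apoa2 and Apom, and the sterol importer Npc1l1. They were taken by gene symbol from the array's annotation, and all 10 were measured, out of 22180 genes with a symbol of their own, each by 1 probe set. The livers came from mice that lacked CREB-H (genotype CREB-H KO, allele Creb3l3tm1.1Sad/J), a transcription factor that is released from the endoplasmic reticulum membrane by cleavage. They were 8 weeks old and on a normal diet. An adeno-associated virus (AAV) directed to the liver, given into the peritoneum, carried either GFP (AAV-GFP, 3 mice) or the active form of the factor (AAV-CREB-H-ΔTC, 3 mice), and livers were collected 2 weeks later. The knockout was therefore shared by the control animals, and no mouse with its own CREB-H was part of the comparison. Which promoter drove the vector's insert was not stated in the labels. Each liver was hybridised to 1 array, and all signals and differences below are on a log2 scale.

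High-density lipoprotein (HDL) returns cholesterol from tissues to the liver. The transporters ABCA1 and ABCG1 load cholesterol onto HDL, LCAT esterifies it on the particle, PLTP moves phospholipid between lipoproteins, and the receptor SR-BI, the product of Scarb1, takes cholesteryl ester from HDL into the hepatocyte. The proteins ABCG5 and ABCG8 work only as a pair, which exports sterols from the hepatocyte into bile and from the enterocyte into the gut, while NPC1L1 takes sterols up again. Abca1, Abcg1, Abcg5 and Abcg8 are classic targets of the liver X receptors (LXRs), which sense oxysterols.

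Abcg5 and Abcg8 are neighbours that run away from each other, so that the stretch between their start sites serves as upstream sequence of both; it is shown because these partners stood higher together in the livers given CREB-H. In RefSeq (GRCm38.p6), chr17:84683012-84683120 on the plus strand holds the 109 bases between the start of Abcg5, which lies to the left and is read leftwards, and the nearer of 2 starts of Abcg8, which is read rightwards. Capitals mark its 2 matches to the GATA box AGATAA, here in the reverse direction.
Abcg5-Abcg8 interval: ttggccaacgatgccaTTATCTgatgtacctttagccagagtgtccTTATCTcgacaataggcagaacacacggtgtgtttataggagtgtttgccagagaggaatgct
These matches begin 52 and 22 bases upstream of the Abcg5 start. Windows of 300 bases (250 before and 50 after a start) were held for 8 members, 10 windows in all since Abcg8 and Apoa2 have 2 starts each, and searched on both strands. No window was held for Scarb1 or Abcg1, so these genes were not searched for any of the letters below. AGATAA was found in windows of Abcg5, Abcg8 and Lcat, and in 11.2% of all 32851 windows. The windows of Abcg5 and Abcg8 overlap, and their matches to AGATAA are the same bases. TGACG, the core of the cyclic AMP response element to which factors of the CREB family bind, was found in windows of Apoa2 and Npc1l1 and in 20.8% of all windows. The complete element TGACGTCA, which contains TGACG, was in no member's window and in 1.79% of all. A direct repeat of AGGTCA, the letters that nuclear receptor pairs read, was in no member's window with 4 bases between the copies (0.0152% of all windows) or with 1 base between them (0.0396%). Only these exact letters were searched, so a miss does not show that a variant of the repeat is absent. The E-box CACGTG was found in the window of Abca1 and in 7.15% of all.

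The 3 further stretches hold the matches to TGACG (Apoa2 and Npc1l1) and to CACGTG (Abca1), marked in capitals, and are printed on the strand of each gene to set beside the Abcg5-Abcg8 interval. They are chr1:171225006-171225053 (plus strand), chr11:6230357-6230411 (minus strand, with TGACG in the reverse direction) and chr4:53160012-53160067 (minus strand), all from RefSeq in GRCm38.p6.
Apoa2: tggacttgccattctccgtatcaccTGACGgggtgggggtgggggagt
Npc1l1: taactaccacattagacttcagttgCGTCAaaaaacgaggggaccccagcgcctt
Abca1: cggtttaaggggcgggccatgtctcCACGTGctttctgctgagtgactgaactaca
The match begins 23 bases upstream of the start in Apoa2, 141 in Npc1l1 and 147 in Abca1. A match of letters is not a measured binding site, and no binding was measured in this series.

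The supplied factor and the tissue were checked first. Creb3l3 read 6.55, 5.93 and 6.40 on the GFP arrays and 6.73, 7.25 and 7.58 on the CREB-H arrays. It was higher without overlap, in the direction of the labels, as were 6.25% of all genes. The log2 difference of 0.89 (standard error 0.25) did not pass the test over all probe sets (limma adjusted p = 0.647). The probes of Creb3l3 may also read the knockout allele. The 8 hepatocyte markers had mean signals of 12.64 to 12.76 with GFP and 12.65 to 12.73 with CREB-H. The mean of 7 enterocyte markers stayed between 4.49 and 4.69 on all arrays, near the median of all probe sets (4.98 to 5.01 by array). On CREB-H replicate 2 the mean of 5 exocrine pancreas markers was 5.73, against 5.06 to 5.17 on the others. That of 4 adipocyte markers was 4.90 there, against 4.61 to 4.73. The cause was not tested. The arrays of replicate 3 in both groups, called Y-positive below, read 3 genes of the Y chromosome (Uty, Kdm5d and Eif2s3y) at a mean of 7.83 (GFP) and 7.67 (CREB-H), against 3.15 to 3.39 on the other 4, called Y-negative. Xist, an RNA of the X chromosome, read 4.43 (GFP) and 3.75 (CREB-H) on the Y-positive arrays, against 10.83 to 11.35 on the Y-negative ones. The labels give no sex. Each group thus held 1 Y-positive array, and differences within the arrays of either kind are given for the members and for other genes where they diverge.

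The HDL receptor and both partners of the sterol exporter read higher with CREB-H, each on all 3 arrays. The log2 differences were 0.45 for Scarb1, 0.57 for Abcg5 and 0.45 for Abcg8, or 1.36-fold, 1.48-fold and 1.37-fold. Abca1, the transporter that makes nascent HDL, was the 1 member that read lower without overlap. The other 6 members overlapped between the groups. No member passed the test over all probe sets (limma, adjusted p = 0.555 to 0.995), where 0.00484% of 41345 probe sets passed. At an unadjusted p below 0.05, 3 members were higher, against 3.29% of all genes, and 0 were lower, against 2.43%. Groups that did not overlap were found in 3 of 10 members in the higher direction, against 6.25% of genes, and in 1 of 10 in the lower direction, against 6.01%. The median log2 difference of the 10 was 0.11, with 7 higher and 3 lower. The members had been proposed with results of these arrays in view, so these counts describe them and are not independent evidence.

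Scarb1 (probe set 17452957, Entrez 20778) encodes SR-BI, the main HDL receptor of the hepatocyte. Its signals were 8.63, 8.71 and 8.73 on the GFP arrays and 9.07, 9.09 and 9.25 on the CREB-H arrays. All 3 CREB-H livers lay above all 3 controls, and the gap between the groups was wider than the range within either. The means were 8.69 ± 0.05 and 9.14 ± 0.10 (SD, n = 3 per group), and CREB-H exceeded GFP by 0.45 on the log2 scale, with a standard error (SE) of 0.10 and a 95% interval of 0.21 to 0.69. The limma adjusted p was 0.613, and an exact permutation test (two-sided) gave p = 0.1, its lower limit with 3 arrays a group; Abcg5, Abcg8 and Abca1 gave the same. The difference was 0.41 in the Y-negative and 0.52 in the Y-positive arrays.

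Abcg5 (probe set 17347729, Entrez 27409), the first partner of the biliary sterol exporter, had the largest difference of the 10. It read 9.73, 9.70 and 9.69 with GFP and 10.26, 10.21 and 10.35 with CREB-H. The controls lay within 0.04 of one another, the tightest GFP group among the members, and every CREB-H liver stood well above them. Means of 9.70 ± 0.02 and 10.27 ± 0.07 (SD, n = 3 per group) gave a log2 difference of 0.57 (SE 0.10, 95% interval 0.34 to 0.79; limma adjusted p = 0.555). In linear terms this was 1.48-fold, with an interval of 1.26 to 1.73. It was 0.52 in the Y-negative and 0.66 in the Y-positive arrays.

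Abcg8 (probe set 17340099, Entrez 67470), the second partner, read 9.42, 9.72 and 9.83 with GFP and 10.12, 10.02 and 10.19 with CREB-H. The groups did not overlap, but the controls were spread more widely than for Abcg5, with GFP replicate 1 lowest. The means were 9.66 ± 0.21 and 10.11 ± 0.08 (SD, n = 3 per group), giving a log2 difference of 0.45 (SE 0.13, 95% interval 0.13 to 0.77; limma adjusted p = 0.647). Without GFP replicate 1 the difference was 0.33. It was 0.50 in the Y-negative and 0.35 in the Y-positive arrays.

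Whether the partners differed in response was examined within each array. The signal of Abcg5 minus that of Abcg8 was 0.30, -0.02 and -0.14 on the GFP arrays and 0.14, 0.18 and 0.16 on the CREB-H arrays. The CREB-H values lay inside the range of the controls, and the change in this difference, 0.11, had an exact two-sided permutation p of 0.4. A difference in response between the partners was not detected, which does not show that they responded equally. The order of the CREB-H arrays was the same for both, with replicate 3 highest and replicate 2 lowest, but the order of the GFP arrays was opposite.

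**Figure D1:**
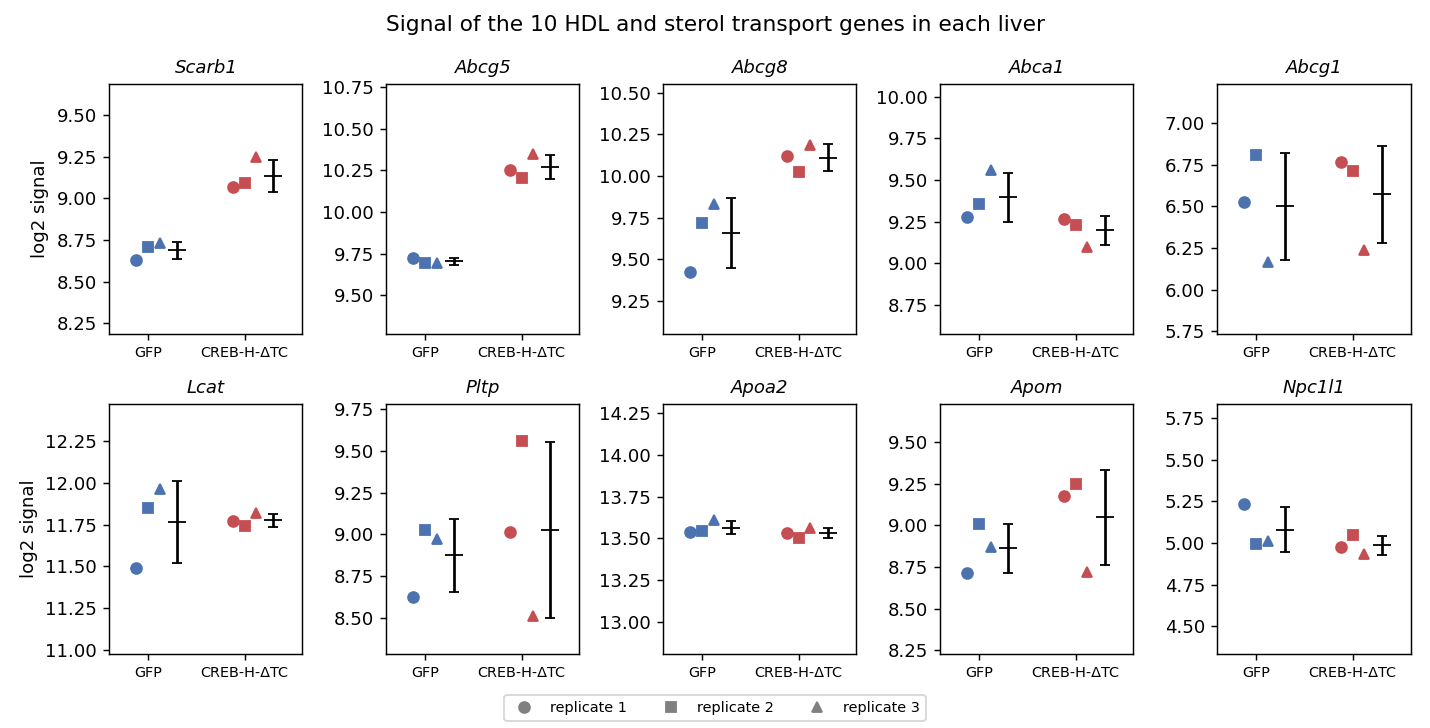
Log2 signal (vertical axis, each panel spanning the same 1.5 units) of the 10 members in each GFP (blue) and CREB-H-ΔTC (red) liver; marker shapes give the replicate number, and the black bar is the mean ± SD of 3 arrays. Scarb1, Abcg5 and Abcg8 lie higher on all 3 CREB-H arrays, Abca1 lies lower, and the other 6 overlap.

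Of the exporters that load HDL, Abca1 read slightly lower with CREB-H and Abcg1 overlapped between the groups. Abca1 (probe set 17425301, Entrez 11303) read 9.27, 9.36 and 9.56 with GFP and 9.26, 9.23 and 9.10 with CREB-H. The groups were separated by 0.01 only, between replicate 1 of each. The means were 9.40 ± 0.15 and 9.20 ± 0.09 (SD, n = 3 per group), giving a log2 difference of -0.20 (SE 0.12, 95% interval -0.48 to 0.08; limma adjusted p = 0.814). It was -0.46 between the Y-positive arrays and -0.07 among the Y-negative ones. The interval of Abca1 ended at 0.08, below the lower bounds of Scarb1, Abcg5 and Abcg8, which were 0.21, 0.34 and 0.13; the difference in response between members was not tested here.

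Abcg1 (probe set 17335770, Entrez 11307), which passes cholesterol to mature HDL and is strongly expressed in macrophages, read 6.52, 6.81 and 6.16 with GFP and 6.77, 6.71 and 6.24 with CREB-H. The groups overlapped almost entirely, and in each group the Y-positive array was the lowest. The log2 difference was 0.07 (SE 0.21, 95% interval -0.43 to 0.58; limma adjusted p = 0.969), and it was 0.07 in the Y-positive and in the Y-negative arrays. It turned to -0.10 without GFP replicate 3 and to -0.02 without CREB-H replicate 1.

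The 3 livers with the least macrophage marker signal also had the least Abcg1 signal, an order that the other 3 did not keep. The mean of the 10 Kupffer cell and macrophage markers (Clec4f, Vsig4, Adgre1, Cd5l, Csf1r, Timd4, Marco, Cd68, C1qa and Lyz2) was 8.18, 8.84 and 7.73 on the GFP arrays and 8.79, 9.04 and 8.17 on the CREB-H arrays. The 3 arrays with the lowest marker signal, GFP replicate 3, CREB-H replicate 3 and GFP replicate 1, were also the 3 lowest for Abcg1, in the same order. The other 3 arrays did not follow: CREB-H replicate 2 had the highest marker signal but the lowest Abcg1 of these 3. All 10 markers had a higher mean with CREB-H (median difference 0.40), although the ranges of the list mean, 7.73 to 8.84 and 8.17 to 9.04, overlapped and 0 of the 10 passed the limma test. Hepatocyte markers followed the same order for these 3 arrays but moved by no more than 0.07 from their mean. The same 3 arrays were also lowest for other lists, so the split was not particular to macrophages. List means on GFP replicate 1, GFP replicate 3 and CREB-H replicate 3 were 8.92, 8.90 and 9.01 for endothelial markers, against 9.20 to 9.23 on the others. Stellate cell markers and those of lymphocytes and neutrophils split alike, and cholangiocyte markers did not. The part of macrophages in the signal of any member was not tested. In whole liver, fewer cells of a type and less RNA per cell cannot be told apart.

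**Figure D2:**
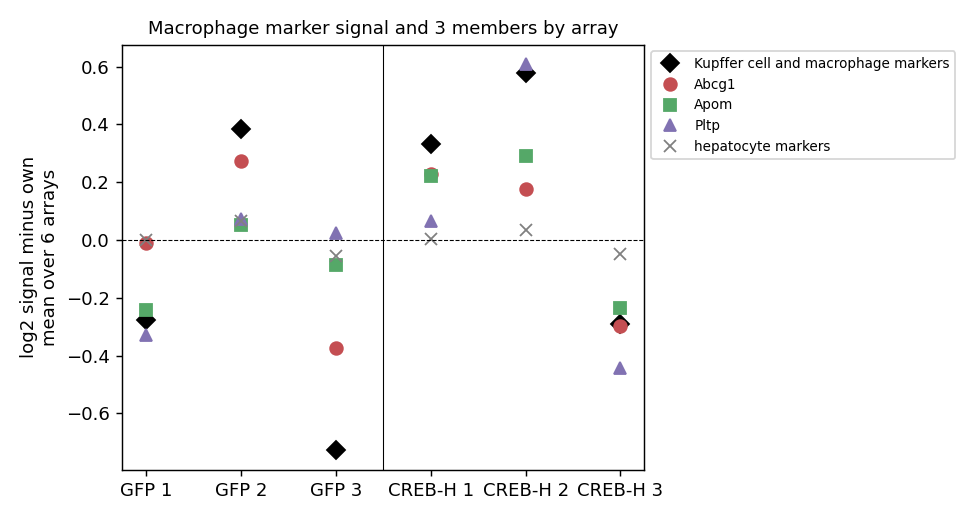
Log2 signal minus its own mean over the 6 arrays (vertical axis) for the mean of 10 macrophage markers, the mean of 8 hepatocyte markers, Abcg1, Apom and Pltp, by array (horizontal axis). Macrophage markers run from -0.73 in GFP replicate 3 to 0.58 in CREB-H replicate 2, and Abcg1 is lowest where they are lowest.

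The enzymes and transfer proteins that act on the particle in plasma did not separate the groups. Lcat (probe set 17512565, Entrez 16816) read 11.49, 11.85 and 11.96 with GFP and 11.77, 11.74 and 11.82 with CREB-H. All 3 CREB-H livers fell inside the range of the controls. The log2 difference was 0.01 (SE 0.14, 95% interval -0.33 to 0.35; limma adjusted p = 0.995). The CREB-H arrays spanned 0.07 and the GFP arrays 0.47, and without GFP replicate 1, the lowest array, the difference was -0.13. It was 0.09 in the Y-negative and -0.14 in the Y-positive arrays.

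Pltp (probe set 17394297, Entrez 18830), which enlarges HDL by phospholipid transfer, was the most variable member. It read 8.62, 9.02 and 8.97 with GFP and 9.02, 9.56 and 8.51 with CREB-H. The CREB-H livers held both the highest and the lowest value of all 6, spanning 1.05. The log2 difference was 0.15 (SE 0.27, 95% interval -0.48 to 0.79; limma adjusted p = 0.945), and it was -0.11 without CREB-H replicate 2. It was 0.46 in the Y-negative and -0.47 in the Y-positive arrays. The test of this contrast, an interaction term of -0.93 (SE 0.43), did not pass over all probe sets (limma adjusted p = 0.757). This term rests on 1 Y-positive array in each group, whose spread is assumed to equal that of the others, so that a miss says little.

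Among the structural proteins, Apoa2 was the steadiest member and Apom varied. Apoa2 (probe set 17219242, Entrez 11807), the second most abundant protein of HDL after apolipoprotein A-I, read 13.54, 13.54 and 13.61 with GFP and 13.53, 13.50 and 13.56 with CREB-H. The 6 livers lay within 0.11 of one another, close to the highest signal in the table (13.9); saturation was not examined. The log2 difference was -0.03 (SE 0.09, 95% interval -0.25 to 0.19; limma adjusted p = 0.968), or -0.03 in the Y-negative and -0.05 in the Y-positive arrays.

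Apom (probe set 17344242, Entrez 55938), the HDL protein that carries sphingosine 1-phosphate, read 8.71, 9.01 and 8.87 with GFP and 9.18, 9.25 and 8.72 with CREB-H. CREB-H replicates 1 and 2 were above all controls, and replicate 3 was almost as low as the lowest control. The log2 difference was 0.18 (SE 0.17, 95% interval -0.21 to 0.58; limma adjusted p = 0.887). It was 0.09 without CREB-H replicate 2, 0.11 without GFP replicate 1 and 0.12 with CREB-H replicate 1 left out, and 0.35 when CREB-H replicate 3 was left out. As for Pltp, the sign differed between the Y-negative (0.35) and the Y-positive arrays (-0.15), with an interaction term of -0.50 (SE 0.26, limma adjusted p = 0.784).

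The importer Npc1l1 (probe set 17260308, Entrez 237636), which is known chiefly from the gut in mice, read 5.23, 4.99 and 5.01 with GFP and 4.98, 5.05 and 4.94 with CREB-H. These signals lay at about the median of all probe sets, and no detection calls were used here. The groups overlapped, with a log2 difference of -0.09 (SE 0.11, 95% interval -0.35 to 0.17; limma adjusted p = 0.911). It was -0.02 without GFP replicate 1, the highest array, and -0.10 in the Y-negative and -0.08 in the Y-positive arrays.

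**Figure D3:**
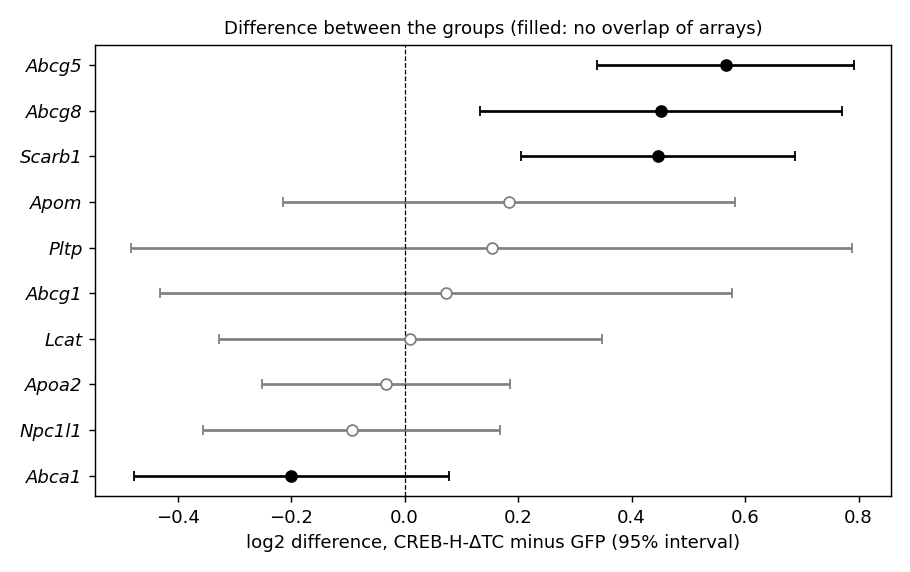
Log2 difference, CREB-H-ΔTC minus GFP (horizontal axis), with its 95% limma interval for each member; filled points are members whose groups did not overlap. The intervals of Abcg5, Abcg8 and Scarb1 lie above 0, that of Abca1 reaches 0.08, and the other 6 cross 0.

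The size of these differences was set against the spread of single arrays. A log2 difference as large as that of Scarb1 in either direction was found in 4.03% of the 22180 genes. GFP replicate 1 had the lowest control signal in 7 of the 10 members, but the highest for Abcg5 and Npc1l1. The share over all genes was not counted. With each array left out in turn, Scarb1 lay between 0.39 and 0.48, Abcg5 between 0.53 and 0.60 and Abcg8 between 0.33 and 0.54, while Abca1 lay between -0.26 and -0.12, the latter without GFP replicate 3. The directions of Scarb1, Abcg5 and Abcg8 were alike in the Y-positive and the Y-negative arrays, whereas Apom, Pltp and Lcat had opposite signs in them. The interaction term, with 1 Y-positive array a group, did not pass for any member (limma adjusted p = 0.757 to 1), which does not show that the contrasts are absent.

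**Figure D4:**
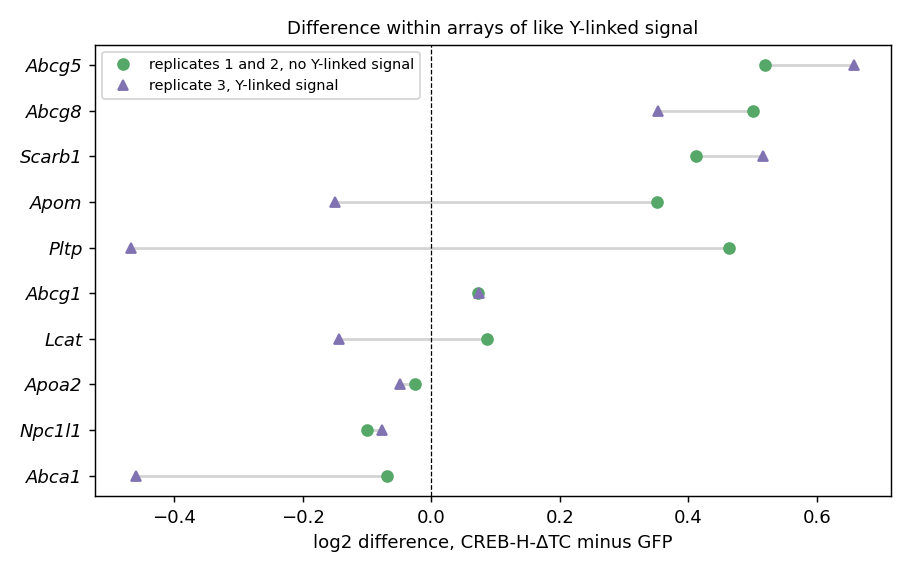
Log2 difference, CREB-H-ΔTC minus GFP (horizontal axis), of each member among the 4 Y-negative arrays (circles, replicates 1 and 2) and between the 2 Y-positive arrays (triangles, replicate 3). Abcg5, Abcg8 and Scarb1 lie above 0 in both, and Apom, Pltp and Lcat change side.

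The other genes of the pathway were grouped in 5 lists, and the median difference of all 22180 genes was 0.003. Of all these genes, 11264 were higher. At an unadjusted limma p below 0.05, 3.29% were higher and 2.43% lower. Without overlap, 6.25% were higher and 6.01% lower. The proteins of the HDL particle and its remodelling had a median of 0.10, with 17 of 24 measured genes higher; the median was 0.06 without GFP replicate 1 and 0.15 without CREB-H replicate 1. In that list 4 genes were higher at an unadjusted p below 0.05 and 0 lower, and 3 were higher and 0 lower without overlap. After adjustment 1 gene rose, Apoa4, an apolipoprotein of HDL and chylomicrons, with a log2 difference of 3.70 (SE 0.18, limma adjusted p = 0.00786), and 0 fell. Apoa4 kept its direction but did not pass without any 1 array other than CREB-H replicate 2 (3.60 to 3.81, adjusted p = 0.0552 to 0.136). Apoc2, the cofactor of lipoprotein lipase, differed by 1.28 (SE 0.19), Apof, an HDL-associated regulator of lipid transfer, by 0.46 (SE 0.14), and Apoa5 by 0.46 (SE 0.17), and these 3 did not pass. Apof read 10.84, 11.07 and 10.72 with GFP and 11.19, 11.28 and 11.53 with CREB-H, so that its groups did not overlap. Its difference was 0.28 in the Y-negative and 0.81 in the Y-positive arrays.

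The list of HDL receptor partners and cell cholesterol traffic had a median of 0.115 (0.06 without GFP replicate 1 and 0.19 in the Y-negative arrays), with 18 of 23 higher and 0 past the limma test in either direction (2 higher and 0 lower at an unadjusted p below 0.05). Lipa, the acid lipase that frees cholesterol from its esters in the lysosome, read 11.25, 11.39 and 11.40 with GFP and 11.82, 11.60 and 12.10 with CREB-H, a log2 difference of 0.49 (SE 0.15, limma adjusted p = 0.647). Npc1, which passes that cholesterol out of the lysosome, read 9.91, 10.17 and 10.21 with GFP and 10.40, 10.36 and 10.41 with CREB-H, a difference of 0.29 (SE 0.12, limma adjusted p = 0.715). Both stood higher without overlap. In this list 2 of 23 genes were higher and 1 lower without overlap, against 6.25% and 6.01% of all genes. The difference of Lipa was 0.39 in the Y-negative and 0.70 in the Y-positive arrays. That of Npc1 was seen with its brighter probe set (17352731) alone: a dimmer one had 0.04 (SE 0.10), and the mean of both had 0.16. Nceh1, a cholesteryl ester hydrolase, was lower without overlap (-0.54, SE 0.24), and this was -0.25 without CREB-H replicate 3. The difference of Nceh1 was -0.31 in the Y-negative and -0.99 in the Y-positive arrays. A dimmer probe set of Nceh1 had -0.43 (SE 0.17), and neither probe set passed the limma test. The caveolar protein gene Cav1 differed by 0.39 (SE 0.19) with overlap, and by 0.21 without CREB-H replicate 2.

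The LXR list had a median of 0.06 (0.03 to 0.14 with 1 array left out, the lowest without CREB-H replicate 1 and the highest without GFP replicate 3), with 10 of 17 higher and 0 past the limma test (2 higher and 1 lower at an unadjusted p below 0.05). Srebf1, the lipogenic regulator and LXR target, read 5.97, 6.34 and 6.86 with GFP and 7.22, 6.87 and 7.03 with CREB-H, a log2 difference of 0.65 (SE 0.23, limma adjusted p = 0.692). The highest control and the lowest CREB-H array differed by 0.01. The difference of Srebf1 was 0.89 in the Y-negative and 0.17 in the Y-positive arrays. Smpdl3a, a phosphodiesterase gene and LXR target, differed by 0.27 (SE 0.10), Abca7, the close relative of Abca1, by 0.26 (SE 0.12), and the receptor partner Rxrb by -0.23 (SE 0.10), all without overlap and none past the test. In the LXR list 3 genes were higher and 2 lower without overlap. A dimmer probe set of Smpdl3a had -0.03 (SE 0.13), and the mean of its 2 probe sets had 0.12. Of the members that LXRs are known to drive, Abcg5 and Abcg8 read higher, Abcg1 overlapped and Abca1 read lower. The groups of Abca1 were separated by 0.01 only. None of these members passed the limma test, and the part of LXRs in their differences was not tested.

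The SREBP2 list, which holds genes of cholesterol synthesis, had a median of 0.17, with 13 of 15 higher, 0 past the limma test, 0 at an unadjusted p below 0.05 and 0 without overlap. Lss differed by 0.37 (SE 0.18), Fdft1 by 0.61 (SE 0.33), Mvd by 0.20 (SE 0.14) and Nsdhl by 0.37 (SE 0.31). In these 4 genes the difference between the 2 Y-positive arrays had the opposite sign (-0.13, -0.15, -0.03 and -0.38). All 4 moved by over 1.5 times with 1 array left out: Lss was 0.24 and Nsdhl 0.06 without CREB-H replicate 2, Nsdhl and Fdft1 were 0.16 and 0.32 without GFP replicate 2, Mvd was 0.10 without GFP replicate 1, and Fdft1 and Mvd were 0.97 and 0.31 without GFP replicate 3. Nsdhl was 0.62 without CREB-H replicate 3. Over the whole list the median was 0.03 without CREB-H replicate 2, 0.06 without GFP replicate 2, 0.29 without CREB-H replicate 1 and 0.31 without GFP replicate 3.

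The list of biliary lipid and bile acid output, which also holds genes of bile acid uptake and synthesis, had a median of -0.03. This median turned to 0.02 without GFP replicate 3 and to 0.01 without CREB-H replicate 2. In the list 6 of 14 genes were higher, with 0 past the limma test, 0 at an unadjusted p below 0.05 and 0 without overlap. Abcb11, the bile salt export pump, differed by 0.29 (SE 0.15), Abcc2 by 0.14 (SE 0.11), the bile acid importer Slc10a1 by 0.18 (SE 0.13) and the basolateral exporter Abcc3 by -0.25 (SE 0.15). The difference of Abcb11 was 0.47 in the Y-negative and -0.07 in the Y-positive arrays, and it was 0.17 without CREB-H replicate 2. Its groups did not overlap in the Y-negative arrays, where 22.2% of all genes were higher without overlap. Abcc3 had -0.05 in the Y-negative and -0.65 in the Y-positive arrays, and -0.13 without GFP replicate 3. Whether the canalicular transporters Abcb11 and Abcc2 differed in response from Abcg5 and Abcg8 was not tested.

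**Figure D5:**
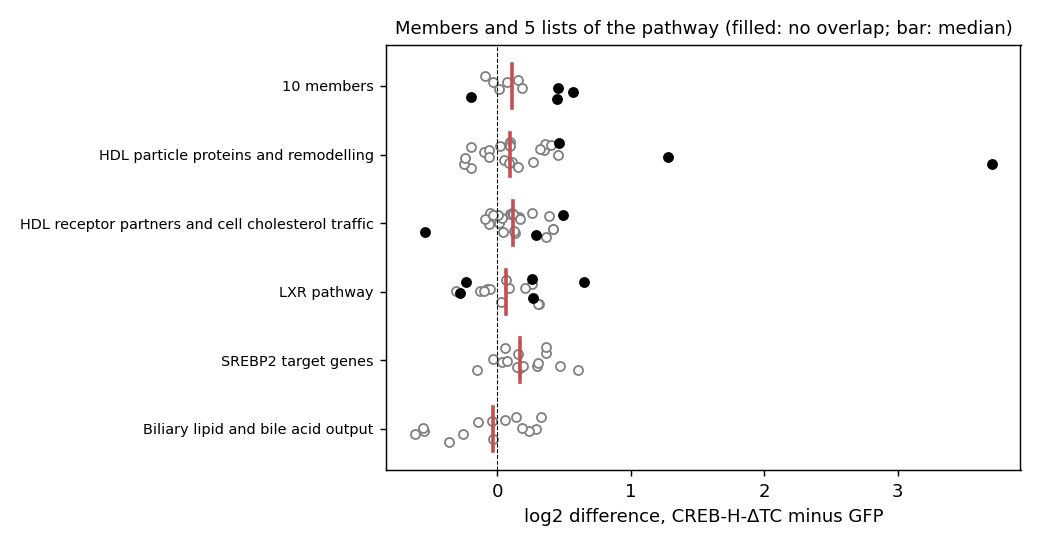
Log2 difference, CREB-H-ΔTC minus GFP (horizontal axis), of the 10 members and of each measured gene in 5 lists of the pathway; filled points had no overlap between the groups, and the red bar is the median of the list. Apoa4 at 3.70 is the 1 gene in the plot that passed the limma test, and list medians lie between -0.03 and 0.17.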

How the data were processed

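The authors deposited 1 log2 signal for each probe set and liver, and the submitters' processing notes name the Transcriptome Analysis Console. That the scale is log2 was read from the values, and the sources used here do not give the version, the summarisation, the normalization or any filter. No background or detection calls were used, so changes of dim probe sets can read too small. GEO's platform annotation named 23521 of 41345 probe sets by 1 gene, and a gene with several took the one with the highest mean. The 3 CREB-H and 3 GFP arrays were tested against each other by limma (version 3.58.1, R 4.3.3; lmFit and eBayes, no covariates), two-sided, with p-values adjusted by Benjamini-Hochberg over every probe set and called below 0.05. The model was checked on simulated data. Precision is limited by the number of arrays, with a median SE of 0.142 for a log2 difference. The labels call the mice biological replicates.

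Members, lists, alternatives and the naming rule (the 10 members, Creb3l3, the Y-linked genes, Xist, and up to 4 genes per list with the lowest unadjusted p) were chosen with earlier results of these data known. Arrays were called Y-positive above a mean of 5 over Kdm5d, Eif2s3y and Uty. The interaction term was added after the values were seen. Deviations of same-numbered arrays correlated at 0.08, 0.13 and 0.33, so the numbers were not taken as pairs. Sequences are from RefSeq.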

Additional observations from a re-analysis of the deposited data

How the results depend on the processing

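The alternatives were quantile normalization, median centring, dropping the 25% or the 50% of probe sets with the lowest mean, limma-trend, robust eBayes, array weights, a replicate block, each array left out in turn, a term for Y-positive arrays, the 4 Y-negative arrays alone, 1 probe set per gene, and averaging the probe sets of each gene. In all 18, 0 of the 10 members passed. Scarb1 (0.39 to 0.48), Abcg5 (0.52 to 0.60) and Abcg8 (0.33 to 0.54) kept their direction, with adjusted p from 0.357 to 0.875, and so did Abca1, Apoa2, Apom and Npc1l1. With 1 array left out, Abcg1 ran from -0.10 to 0.24, Lcat from -0.13 to 0.11 and Pltp from -0.11 to 0.41, each turning sign in at least 1 fit. With 1 array left out, 3 to 4 members were higher without overlap, against 10.4% to 14.3% of all genes, and 1 to 2 were lower, against 9.86% to 12.6%. Among the 4 Y-negative arrays 4 were higher and 2 lower, against 22.2% and 19.7% of genes. In the list of HDL particle proteins, genes past the test numbered 0 to 1 with 1 array left out, 0 among the Y-negative arrays, and 0 with the replicate block, under which 0 of all probe sets passed; the causes were not tested. In this balanced design the replicate block cannot change a log2 difference (Scarb1 0.45, Abcg5 0.57, Abcg8 0.45), only its error, and it changed no call of a member. No scaling moved the median of all probe sets by over 0.1. With 3 arrays a group, an adjusted p above the threshold does not show that a gene did not differ.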
